A study of Homo sapiens with 4 samples.

Results

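The alpha-arrestins are the 6 human genes TXNIP, ARRDC1, ARRDC2, ARRDC3, ARRDC4 and ARRDC5, taken by symbol from the 58735 genes of the deposited table. The family was chosen because ARRDC3 was about 9-fold higher in shGOLM1 in these same counts. The members' levels and differences are therefore given as a description, with no test. The series holds RNA-seq of SUP-M2, an established line of human lymphoma cells (anaplastic large cell lymphoma), in 4 libraries. In 2 libraries the cells were labelled with a scrambled short hairpin RNA and the genotype control (shscramble). In the other 2 they were labelled with a hairpin against GOLM1, a Golgi membrane protein gene, and the genotype GOLM1 knockout (shGOLM1). The labels do not say whether the replicates were separate cultures or whether 1 hairpin or several were used against GOLM1. Any p-value here thus rests on the spread among these 4 libraries, and that spread may be technical.

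Alpha-arrestins are adaptor proteins that share the arrestin fold with the better known beta-arrestins. Through short proline-rich motifs most of them recruit ubiquitin ligases of the NEDD4 family to membrane proteins, which are then tagged, taken up and sorted in endosomes. TXNIP also binds thioredoxin and lowers glucose uptake by removing glucose transporters from the cell surface. Transcription of TXNIP and of ARRDC4 is known to follow the supply of glucose through the factors MondoA (gene MLXIP) and MLX, which bind paired E-box-like sites called carbohydrate response elements. ARRDC3 is known for the sorting of membrane receptors and integrins, and ARRDC1 for the budding of small vesicles from the plasma membrane.

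Promoter windows are shown because TXNIP and ARRDC3 were the members with the large differences, while ARRDC4, which shares the glucose response with TXNIP in other cells, had almost no reads. RefSeq windows of 300 bases on GRCh38.p14, running from 250 bases before a transcription start to 50 bases after it, were found for 5 of the 6 members, 8 windows in all. TXNIP has windows at an upstream start, chr1:145996530-145996829, and at a downstream start inside the gene, chr1:145995695-145995994, both on the minus strand; the second is not printed. ARRDC3 has windows at an upstream start, chr5:91383268-91383567, and at a downstream start inside the gene, chr5:91380048-91380347, both on the minus strand. The ARRDC4 window lies at chr15:97960453-97960752 on the plus strand. Each of these starts lies within 50 bases of the start of 1 GENCODE 29 transcript of its gene. The sequences read 5′ to 3′, with matches to 5 searched motifs in capitals: the carbohydrate response element, which is CACGNG followed after 5 bases by CACGNG, the E-box CACGTG, the FOXO-type element GTAAACA, the ATF4-type element TGATGNAA and the NF-Y-type box CCAAT, each on both strands.
TXNIP, upstream start: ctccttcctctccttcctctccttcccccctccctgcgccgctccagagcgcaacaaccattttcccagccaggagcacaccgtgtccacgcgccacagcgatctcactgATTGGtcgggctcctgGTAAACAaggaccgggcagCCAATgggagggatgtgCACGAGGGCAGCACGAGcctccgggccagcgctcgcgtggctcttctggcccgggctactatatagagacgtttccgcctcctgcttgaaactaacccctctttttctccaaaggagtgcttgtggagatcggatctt
ARRDC3, upstream start: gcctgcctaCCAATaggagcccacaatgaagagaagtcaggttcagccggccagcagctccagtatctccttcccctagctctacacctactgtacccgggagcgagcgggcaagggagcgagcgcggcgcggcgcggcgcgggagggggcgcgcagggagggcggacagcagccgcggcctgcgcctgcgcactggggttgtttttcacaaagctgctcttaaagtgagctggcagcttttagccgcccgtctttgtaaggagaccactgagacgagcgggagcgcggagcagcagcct
ARRDC3, downstream start: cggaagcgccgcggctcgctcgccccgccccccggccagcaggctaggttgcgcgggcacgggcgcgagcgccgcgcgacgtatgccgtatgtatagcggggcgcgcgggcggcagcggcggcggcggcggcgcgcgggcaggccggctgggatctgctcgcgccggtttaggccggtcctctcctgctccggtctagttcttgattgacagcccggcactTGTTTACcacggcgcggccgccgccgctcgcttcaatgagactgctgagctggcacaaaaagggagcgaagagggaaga
ARRDC4: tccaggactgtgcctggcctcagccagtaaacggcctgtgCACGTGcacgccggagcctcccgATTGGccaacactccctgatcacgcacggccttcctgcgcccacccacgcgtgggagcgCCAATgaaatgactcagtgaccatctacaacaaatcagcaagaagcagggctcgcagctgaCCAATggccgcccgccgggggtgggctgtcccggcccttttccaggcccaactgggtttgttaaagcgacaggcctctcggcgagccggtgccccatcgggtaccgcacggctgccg

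The carbohydrate response element matched in the upstream TXNIP window alone among the 8, as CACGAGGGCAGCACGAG from -88 to -72 relative to the start. The pattern searched is rare, with a match in 20 of 35116 RefSeq promoter windows (0.057%). Paired sites with other letters were not searched, so other windows may hold elements that it misses. The FOXO-type element, the core bound by forkhead factors of the FOXO class, matched once in the upstream TXNIP window (-124 to -118, plus strand). It matched once in the downstream ARRDC3 window (-29 to -23, minus strand) and in none of the other 6 windows. Of all windows, 3.42% held it. ARRDC4 held the E-box at -210 to -205, which 7.26% of windows hold, and 3 NF-Y-type boxes, and the box itself is common (34.6% of windows). The core of the hypoxia response element, ACGTG, lies inside every such E-box on both strands and is not capitalised. It matched outside an E-box in the downstream TXNIP window alone, and 21.4% of all windows held it. No window of a member held the ATF4-type element, which 3.62% of windows hold. These are matches of letters and do not show binding.

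**Figure D1:**
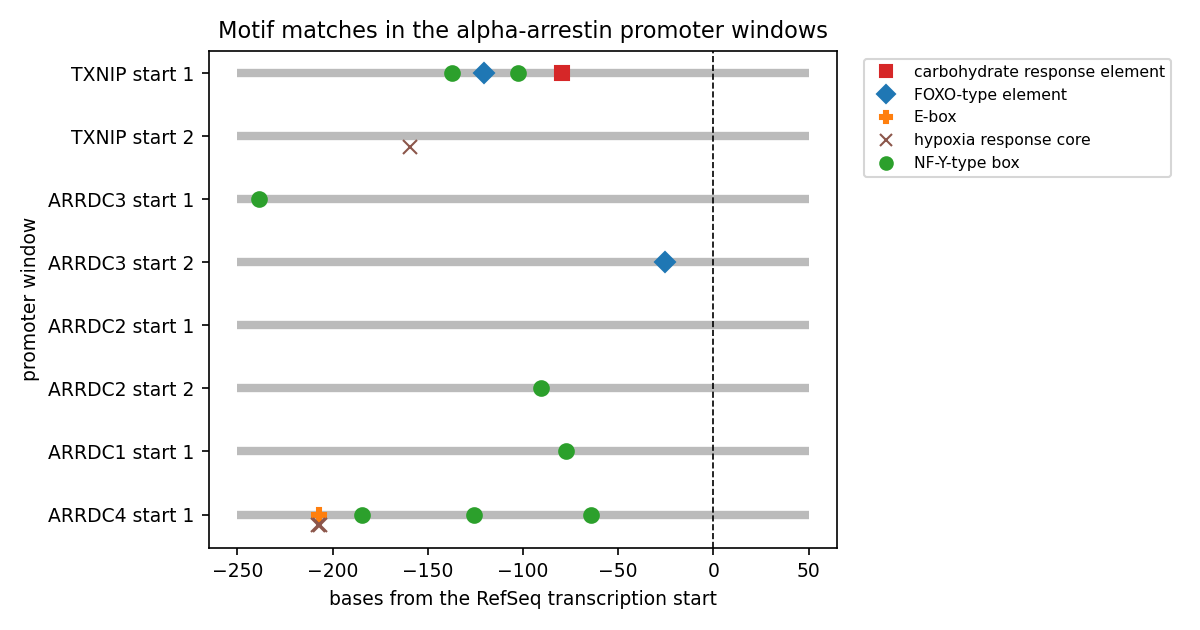
Motif matches in the 8 alpha-arrestin promoter windows, with bases from the RefSeq transcription start on the x axis and a row for each window (start 1 is the most upstream). Symbols mark the centre of each match, grey bars the 300 bases searched and the dashed line the start. The FOXO-type element appears in the upstream TXNIP window and the downstream ARRDC3 window, and the carbohydrate response element in the upstream TXNIP window alone.

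The libraries held 27544171 to 31972153 counts, and a count of 0 allows up to 3 counts, 0.0865 to 0.132 CPM across libraries (CPM being counts scaled to the TMM-adjusted size of each library), for counting error only. The targeted gene GOLM1 was at 212 and 213 CPM in the shscramble pair and at 69.6 and 69.5 CPM in shGOLM1, lower in both. The shGOLM1 libraries stood further apart than the shscramble libraries. Log2 CPM correlated across the 14166 tested genes at 0.873 within shGOLM1 and 0.989 within shscramble, and genes are not independent replicates. Genes of the mitochondrial genome held 0.455% of the counts of shGOLM1 replicate 2, against 1.95% to 2.38% elsewhere. Ribosomal-protein genes took 14.7% there, against 6.57% to 8.77%. The 5 markers of the lymphoma line were present above 1 CPM in every library but not at steady levels. ALK was at 340 and 316 CPM in shscramble against 327 and 170 CPM in shGOLM1 replicates 1 and 2. TNFRSF8 (CD30) was at 634 and 614 against 539 and 88.4 CPM, and GZMB (granzyme B) at 118 and 86.3 against 149 and 20.4 CPM, both low in shGOLM1 replicate 2. PRF1 (perforin) was at 2.91 and 2.71 against 621 and 145 CPM, and IL2RA (CD25) at 476 and 469 against 345 and 599 CPM. Of 5 B cell markers none passed 1 CPM in any library. Among 6 myeloid markers only CSF1R did, at 231 to 309 CPM, and the other 5 summed to 0.301 to 1.24 CPM. The 5 epithelial markers summed to 0.398 and 0.601 CPM in shscramble and to 0.606 and 3.16 CPM in shGOLM1 replicates 1 and 2. The 5 fibroblast markers summed to 0.0613 and 0.361 against 1.41 and 2.2 CPM. MS4A1, CD79B, SPI1, KRT19 and COL1A2 had 0 counts throughout. The part of these shares and markers in the results below was not tested.

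TXNIP (ENSG00000265972, chromosome 1, 145992435 to 145996600, minus strand, GRCh38) was the most abundant member in control cells. It was at 21.3 and 19.4 CPM in replicates 1 and 2 of shscramble and at 225 and 101 CPM in replicates 1 and 2 of shGOLM1. Both shGOLM1 libraries were above both shscramble libraries, and replicate 1 was the higher of the shGOLM1 pair. The means were 20.3 ± 1.37 and 163 ± 87.4 CPM (SD, n = 2 each), an 8.01-fold difference, with a log2 fold change of 3.0 (SE 0.50). Without shGOLM1 replicate 1 the log2 fold change was 2.26. In bulk RNA, more cells with TXNIP and more TXNIP RNA per cell cannot be told apart. Within shGOLM1, replicate 2 held 0.45 times the TXNIP level of replicate 1, with an exact 95% counting interval of 0.429 to 0.471. In shscramble that ratio was 0.909 (0.815 to 1.01), so the shGOLM1 libraries differed in TXNIP beyond counting error and the shscramble libraries did not.

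ARRDC3 (ENSG00000113369, chromosome 5, 91368724 to 91383359, minus strand) was at 9.93 and 10.1 CPM in the shscramble pair and at 72.6 and 108 CPM in replicates 1 and 2 of shGOLM1. The shscramble libraries were nearly equal, both shGOLM1 libraries were far above them, and here replicate 2 was the higher one, the reverse of TXNIP. The means were 10 ± 0.122 and 90.4 ± 25.1 CPM (SD, n = 2 each), a 9.02-fold difference, with a log2 fold change of 3.17 (SE 0.36). Replicate 2 of shGOLM1 held 1.49 times the level of replicate 1 (counting interval 1.41 to 1.57), and replicate 2 of shscramble 1.02 times (0.871 to 1.19). The noncoding gene ARRDC3-AS1 overlaps ARRDC3 by 3011 bases on the other strand. Its counts were 2 and 11 in shscramble, then 13 and 14 in shGOLM1, against 324 to 2519 counts of ARRDC3. The sources used here do not give the strand setting of the counting, so reads of such overlapping genes cannot be told apart with certainty.

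ARRDC2 (ENSG00000105643, chromosome 19, 18001132 to 18014102, plus strand), a close relative of ARRDC3 in the same adaptor class, was at 6.83 and 5.8 CPM in shscramble. In shGOLM1 it was at 5.08 CPM in replicate 1 and 27.3 CPM in replicate 2. Replicate 1 was below both shscramble libraries and replicate 2 above both, so the groups overlapped. The means of 6.32 ± 0.729 and 16.2 ± 15.7 CPM (SD, n = 2 each) differed 2.56-fold, with a log2 fold change of 1.35 (SE 0.87). Without shGOLM1 replicate 2, which had the low share of mitochondrial genes, the log2 fold change was -0.33. Replicate 2 held 5.38 times the level of replicate 1 (counting interval 4.54 to 6.39), the widest gap between shGOLM1 libraries among the 4 tested members.

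ARRDC1 (ENSG00000197070, chromosome 9, 137605654 to 137615360, plus strand) was at 6.59 CPM in each shscramble library and at 11.2 and 10.2 CPM in shGOLM1. Both shGOLM1 libraries were above both shscramble libraries, by a modest margin. The means of 6.59 ± 0.00315 and 10.7 ± 0.685 CPM (SD, n = 2 each) differed 1.62-fold, with a log2 fold change of 0.70 (SE 0.37). The ratio between the shGOLM1 libraries, 0.913 (counting interval 0.773 to 1.08), lay within counting error, which was so for no other tested member. The antisense gene ARRDC1-AS1 overlaps the last 29 bases of ARRDC1 and was itself lower in shGOLM1, at 8.8 and 8.33 CPM against 6.43 and 6.55 CPM.

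ARRDC4 and ARRDC5 were not detectable in shGOLM1 at this depth and barely so in shscramble, and neither passed the filter on low counts. ARRDC4 (ENSG00000140450, chromosome 15, 97960698 to 97973838) had 4 counts in shscramble replicate 2 and 0 in the other 3 libraries. ARRDC5 (ENSG00000205784, chromosome 19, 4890437 to 4902867) had 1 count in shscramble replicate 2 and 0 in the other 3. Both groups lay near the limit that a count of 0 allows, so no fold is given. ARRDC4, the other glucose-responsive member, was near that limit in shscramble as in shGOLM1, so its counts are not set against the difference in TXNIP.

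**Figure D2:**
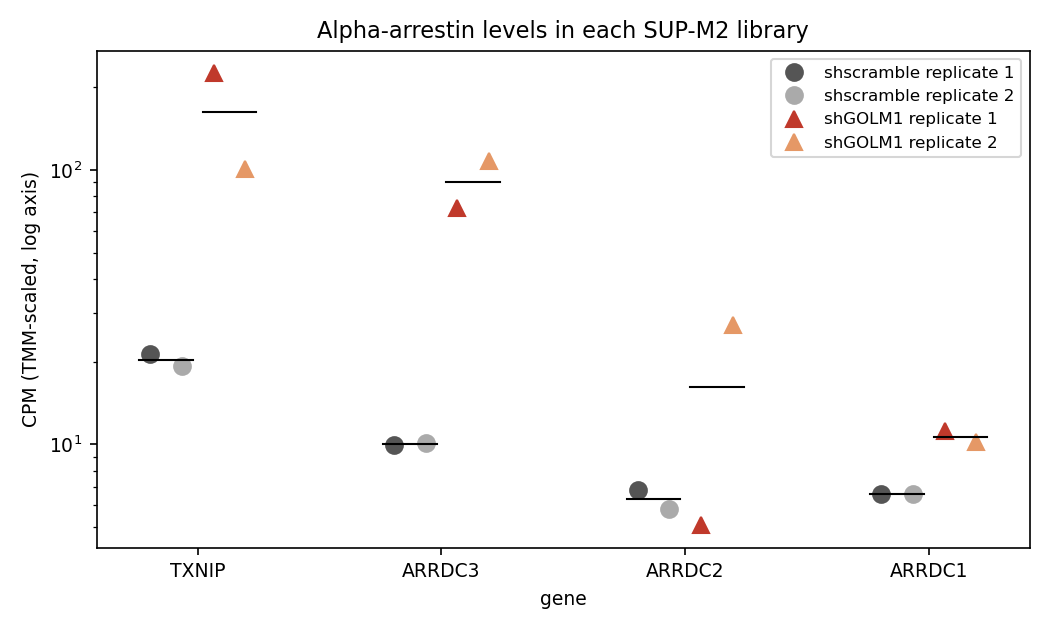
CPM of the 4 tested alpha-arrestins on a log axis, with a point for each library (circles shscramble, triangles shGOLM1) and black lines at the group means. TXNIP and ARRDC3 are several-fold above shscramble in both shGOLM1 libraries but in opposite order, and ARRDC2 is above it in replicate 2 alone. ARRDC4 and ARRDC5 are not drawn.

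Of the 4 tested members, 3 had both shGOLM1 libraries above both shscramble libraries, 0 had both below and 1 overlapped, where 25.2% of all 14166 tested genes lay higher and 26.5% lower. The family was chosen from this contrast, so nothing is read from that count. In shGOLM1 replicate 1, TXNIP differed from the shscramble mean by 3.46 on the log2 scale, and 0.805% of tested genes were at least as high. In replicate 2 the difference was 2.31, and 7.8% of tested genes were at least as high. For ARRDC3 the differences were 2.85 and 3.42, with 1.46% and 2.99% of genes at least as high. ARRDC2 moved from -0.31 (67.6%) to 2.10 (9.26%), and ARRDC1 from 0.75 (19.2%) to 0.62 (32.2%). The same log2 difference thus stood further out in replicate 1, where 5% of genes were above 1.76, than in replicate 2, where 5% were above 2.85.

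**Figure D3:**
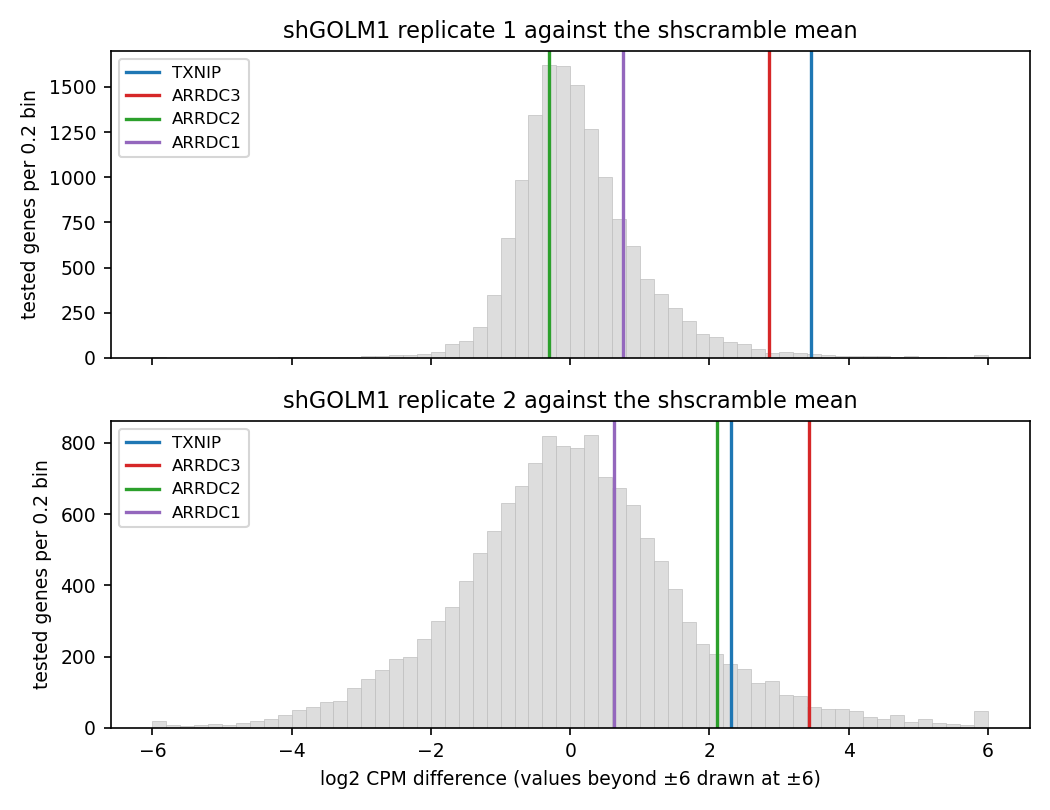
Distribution of the log2 CPM difference from the shscramble mean over 14166 tested genes (grey bars, genes per bin) in shGOLM1 replicates 1 and 2, with lines at the 4 tested alpha-arrestins. TXNIP lies at 3.46 in replicate 1 and at 2.31 in replicate 2, within a wider distribution there, while ARRDC3 lies in the upper tail of both.

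Per length, in the authors' FPKM (counts per kilobase of gene and per scaled library total), the order of levels in shscramble was TXNIP, ARRDC3, ARRDC1, ARRDC2. TXNIP was at 5.55 ± 0.376 FPKM, ARRDC3 at 2.01 ± 0.0238, ARRDC1 at 1.71 ± 0.00145 and ARRDC2 at 1.35 ± 0.156 FPKM (SD, n = 2 each), and no neighbours in that order overlapped. ARRDC4 and ARRDC5 had FPKM of at most 0.0292. In shGOLM1, TXNIP was at 43.7 ± 23.5 FPKM and ARRDC3 at 17.8 ± 4.92 FPKM, and their libraries did not overlap. ARRDC2 followed at 3.39 ± 3.29 FPKM and ARRDC1 at 2.71 ± 0.176 FPKM, and these overlapped. The summed FPKM of the family was 11 and 10.3 in shscramble and 78.5 and 56.6 in shGOLM1 replicates 1 and 2. TXNIP made up 53% and 51.3% of that sum in shscramble, 76.8% in shGOLM1 replicate 1 and 47.8% in replicate 2. ARRDC3 made up 18.2% and 19.7% in shscramble, 18.2% in shGOLM1 replicate 1 and 37.6% in replicate 2. The share of ARRDC3 was thus within the shscramble range in one shGOLM1 library and above it in the other.

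**Figure D4:**
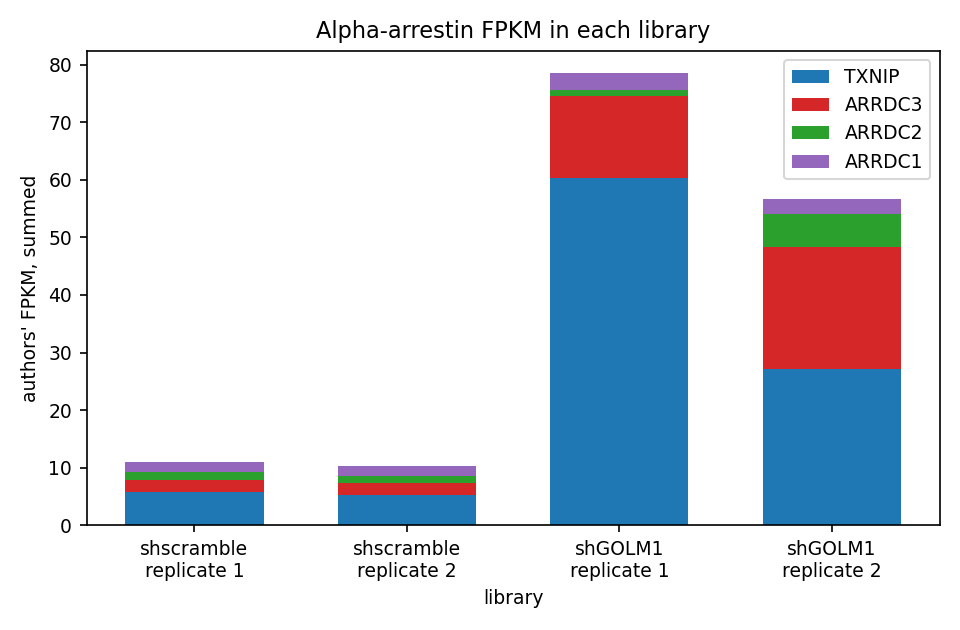
Summed FPKM of the alpha-arrestins in each library, stacked by gene, as deposited by the authors. The sum is 11 and 10.3 in shscramble and 78.5 and 56.6 in shGOLM1, with TXNIP the largest part of each bar and ARRDC3 a larger part in shGOLM1 replicate 2.

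Genes that work with the alpha-arrestins lay on both sides of the shscramble level. In 7 related lists of 57 different genes, 48 were tested and 8 had 0 counts in all libraries. By edgeR's quasi-likelihood test 0 of the 48 passed the adjusted threshold of 0.05, as did 0% of all 14166 genes. At an unadjusted p under that value, 4 were higher and 3 lower in shGOLM1 (8.2% and 3.58% of all tested genes). DESeq2 called 4 higher and 0 lower (3.22% and 0.282% of those genes), and limma-voom called 0. Without shGOLM1 replicate 1, where the spread comes from shscramble alone, edgeR called 34 of the 48 and 67.4% of all genes tested. Without shGOLM1 replicate 2 it called 22 of the 48 and 44.5% of all. Groups did not overlap for 13 higher and 14 lower genes of the 48, 27.1% and 29.2%, near the 25.2% and 26.5% of all tested genes. HECW1, which passed the filter on low counts only through shGOLM1, is among the genes counted as higher in each of these ways. The median log2 fold change was 0.04 over the lists and 0.05 over all tested genes.

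The NEDD4 family of ubiquitin ligases, the partners that alpha-arrestins bring to their cargo, had 9 of 9 members tested, with 3 higher, 4 lower and 2 overlapping. Of all 14166 tested genes, 25.2% lay higher and 26.5% lower. Counted with library totals alone, 2 list members were higher and 3 lower, against 3319 and 3776 of all tested genes. The median log2 fold change was 0.06, and -0.49 without shGOLM1 replicate 1. NEDD4, the founding member, was at 40.5 and 43.4 CPM in the shscramble pair and at 29.8 and 27.3 CPM in shGOLM1, lower in both (edgeR adjusted p = 0.486). ITCH, a ligase of lymphocytes among other cells, was at 60 and 73 against 45.3 and 50.1 CPM (edgeR adjusted p = 0.536). WWP1 was at 34.8 and 32.9 against 29.3 and 24.5 CPM (edgeR adjusted p = 0.654). NEDD4L went the other way, at 27.2 and 31.1 against 32 and 50.2 CPM (edgeR adjusted p = 0.59). HECW1, named after its values were seen as the list's gene called by DESeq2 (adjusted p = 0.0446), had 0 counts in either shscramble library, with 29 and 13 in shGOLM1. With a floor of 3 counts per library this is at least 7.73-fold higher, at an edgeR adjusted p of 0.42. HECW1 passed the filter on low counts only through shGOLM1, so it could only lie higher. It is among the 3 higher members, and nothing is read from its direction.

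Of the glucose-sensing factors that act on carbohydrate response elements, MLX was lower in both shGOLM1 libraries, at 79 and 75.7 CPM in shscramble against 36.9 and 47.1 CPM (edgeR adjusted p = 0.42, log2 fold change -0.88, SE 0.30). MLXIP, which encodes its partner MondoA, was at 64.1 and 73.2 CPM in the shscramble pair and at 90.9 and 32 CPM in shGOLM1. Its shGOLM1 libraries lay on opposite sides of the shscramble pair, with replicate 1, the library with more TXNIP, the higher. MLXIPL, the liver-type partner, had 1 count in shscramble replicate 2 and 0 in the others.

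Glucose uptake and phosphorylation had 5 of 8 members tested, and all 5 lay higher in both shGOLM1 libraries, where 25.2% of all tested genes did. With library totals alone 4 did, and 3319 of all 14166. The other 3, SLC2A6, SLC2A8 and HK3, had 0 counts throughout. In shGOLM1 the list's median log2 difference was 0.62 for replicate 1 and 2.73 for replicate 2, against 0.00 and -0.04 over all tested genes. Without shGOLM1 replicate 2 the list's median log2 fold change was 0.60, against 2.22 with it. SLC2A1, the transporter GLUT1 that TXNIP removes from the surface, was at 116 and 111 against 302 and 752 CPM (adjusted p = 0.42 by edgeR, 0.0139 by DESeq2). SLC2A3, the transporter GLUT3, was at 319 and 329 against 497 and 2742 CPM (adjusted p = 0.424 by edgeR, 0.0422 by DESeq2). Hexokinase HK2 was at 108 and 114 against 165 and 314 CPM, at an edgeR adjusted p of 0.423. These 3 genes were higher in shGOLM1 replicate 2 than in replicate 1, the order of ARRDC3 and not that of TXNIP.

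Other reported cargo of alpha-arrestins was mixed: of 5 tested members of 7, SLC2A1 included, 3 lay higher, 0 lower and 2 overlapped. With library totals alone 2 lay higher. Among all 14166 tested genes 25.2% lay higher and 26.5% lower, or 3319 and 3776 genes with library totals alone. The median log2 fold change was 0.58, and 1.08 without shGOLM1 replicate 1. ITGB4, an integrin chain that ARRDC3 sorts, was at 1.69 and 0.782 CPM in shscramble against 2.8 and 8.48 CPM (edgeR adjusted p = 0.423). F2R, a thrombin receptor, was at 110 and 105 against 198 and 122 CPM (edgeR adjusted p = 0.541). The iron transporter SLC11A2 was at 31.4 and 31.2 against 33.3 and 30.4 CPM, overlapping. INSR, the insulin receptor, had 0 counts in all 4 libraries.

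The thioredoxin and peroxiredoxin system, on which TXNIP acts, had 12 of 13 members tested, with 1 higher, 4 lower and 7 overlapping. With library totals alone 3 were higher and 4 lower. The shares of all tested genes were 25.2% higher and 26.5% lower. PRDX3, the mitochondrial peroxiredoxin, was at 125 and 119 CPM in shscramble against 47.9 and 68 CPM (edgeR adjusted p = 0.42, log2 fold change -1.08, SE 0.32). PRDX1 was at 274 and 254 against 170 and 137 CPM (edgeR adjusted p = 0.423). PRDX6 was higher, at 130 and 119 against 144 and 263 CPM (edgeR adjusted p = 0.507). Glutaredoxin GLRX was at 18.9 and 16.1 against 18.1 and 129 CPM, high in replicate 2 alone. Thioredoxin itself, TXN, was at 618 and 513 against 385 and 786 CPM, with the shGOLM1 libraries on opposite sides of the shscramble pair.

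Among genes with an arrestin fold outside the family, 5 of 7 were tested, with 1 higher, 1 lower and 3 overlapping. With library totals alone 1 was higher and 3 lower. The shares of all tested genes were 25.2% higher and 26.5% lower. VPS26C, an endosomal sorting subunit, was at 55.7 and 53.2 CPM in shscramble against 34.5 and 29.3 CPM (edgeR adjusted p = 0.423). Beta-arrestin ARRB2 was at 48.2 and 44.3 against 31.5 and 60.1 CPM, overlapping, while ARRB1 and SAG had 0 counts throughout. The retromer subunits VPS26A and VPS26B overlapped too, with log2 fold changes of 0.05 and -0.02. ARR3, named after its values were seen as the list's higher gene, was under 1 CPM in every library. The log2 fold changes of these 5 ran from -0.77 to 0.78, and their difference from the alpha-arrestins was not tested.

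The ESCRT machinery, which sorts tagged cargo into vesicles and which ARRDC1 engages in budding, had 11 of 11 members tested, with 1 higher, 4 lower and 6 overlapping. With library totals alone 3 were lower. For all tested genes the shares were 25.2% higher and 26.5% lower. HGS, which recognises tagged cargo, was at 86.1 and 91.3 CPM in shscramble against 108 and 177 CPM (edgeR adjusted p = 0.491). VPS37B was at 20.4 and 17 against 12.3 and 5.14 CPM (edgeR adjusted p = 0.481). VPS4B, the ATPase that takes the complex apart, was at 85.8 and 85.5 against 75.5 and 31.8 CPM (edgeR adjusted p = 0.592). VPS28 was at 58.1 and 53.9 against 47.6 and 133 CPM, on both sides of the shscramble pair. TSG101, the subunit that ARRDC1 binds, was at 52.7 and 50 against 34.7 and 49.4 CPM, just below the shscramble pair in replicate 2 and overlapping it with DESeq2-kind size factors.

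**Figure D5:**
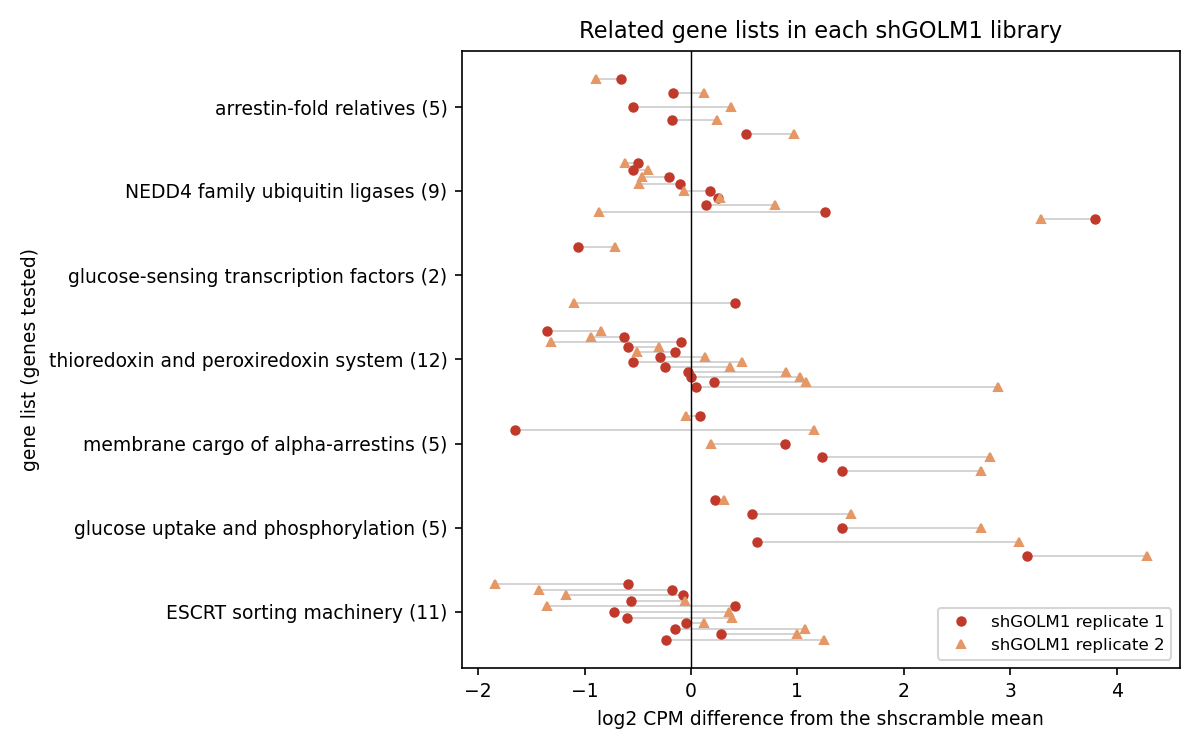
Log2 CPM difference from the shscramble mean for each tested gene of the 7 related lists, in shGOLM1 replicate 1 (circles) and replicate 2 (triangles), with a grey line joining the libraries of a gene. Glucose uptake and phosphorylation is the list with every tested gene above 0 in both libraries, and its median is 0.62 in replicate 1 and 2.73 in replicate 2.

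The profiles most like that of ARRDC3 over the 4 libraries were sought by the root mean square difference of centred log2 CPM. Candidates were 9339 tested genes with a mean of at least 5 CPM, without clone-named genes, pseudogenes and Y-linked genes. The 5 nearest were DENND1C (0.168), LRP1 (0.172), SMIM14 (0.212), HOXB9 (0.215) and TENM1 (0.24). DENND1C, an activator of Rab GTPases, was at 3.34 and 4.33 CPM in shscramble against 32.9 and 39.8 CPM. LRP1, an endocytic receptor, was at 5.36 and 6.98 against 40.3 and 54.2 CPM. For TXNIP the 5 nearest were PTPRD (0.297), SV2A (0.325), CTSS (0.354), C3orf67 (0.396) and SLC2A13 (0.397). CTSS, cathepsin S, was at 1.2 CPM in both shscramble libraries against 18.1 and 11.2 CPM. TXNIP and ARRDC3 differed from each other by 0.625, and TXNIP stood at place 69 in the order from ARRDC3. A profile chosen for its likeness to ARRDC3 or TXNIP is higher in shGOLM1 by that choice. Several of these genes, such as HOXB9 at 1.07 and 1.59 CPM in shscramble, reached the mean of 5 CPM through shGOLM1 alone. With only 4 libraries these likenesses are a description.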

How the data were processed

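RNA-seq counts of 4 SUP-M2 libraries were taken from a single deposited table. Per the file headers, the deposited counts are raw whole numbers of reads for each gene. The FPKM values, mean signal per group, log2 fold change and p-value columns are the authors' own, per the file headers, and of these only FPKM was used, for levels between genes. Recalculated from the counts, that FPKM divides by gene length and a library total. The labels' protocols name a SMARTER kit for the libraries. The aligner, counter and strand setting were not given in the sources used here. Mouse builds (GRCm38, mm10) stand in the submitters' processing notes, but all 58735 gene identifiers and coordinates of the deposited table equal human GENCODE 29 (GRCh38).

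Samples were grouped by title. Counts were tested with edgeR 4.0.16 (quasi-likelihood, TMM, filterByExpr, R 4.3.3), with Benjamini-Hochberg adjustment over 14166 genes. The SE is the log2 fold change divided by the root of the F statistic. Log2 CPM used a prior count of 2. Alternatives used DESeq2 1.42.0, limma-voom (limma 3.58.1), other scalings and filters, a replicate block and each library left out. The procedure was tested on simulated data with the same spread in both groups. That test does not cover the wider spread within shGOLM1 seen here.

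The members, related lists, markers and motifs were chosen with earlier results of these data known. Named genes were all members and GOLM1, up to 4 tested genes per related list (smallest p, mean 1 CPM or more), and the 5 nearest profiles to ARRDC3 and to TXNIP. Other genes given values (HECW1, ARR3, TXN, TSG101, genes at 0, markers, overlapping and neighbouring genes) were named after their values were seen. Promoter windows are from RefSeq. Protein sequences were not analysed here, and values of some list genes are not reported here.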

Additional observations from a re-analysis of the deposited data

How the results depend on the processing

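Counts of called genes depended on the setting. Genes called higher and lower were 0 and 0 in edgeR, 175 and 17 with no filter on low counts, and 514 and 40 in DESeq2. Leaving out 1 library gave 16 to 5078 higher and 4 to 5212 lower, the largest without shGOLM1 replicate 1 (5078 and 5212) and without shGOLM1 replicate 2 (3087 and 3634). In the latter fits the spread comes from shscramble alone, and the single shGOLM1 library is taken to share it. Among the related genes, 0 were called in edgeR, 1 with no filter, 4 in DESeq2 and 0 to 34 with 1 library left out.

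With the replicate number as a block, 169 genes were called higher and 34 lower, and 1 related gene. The labels do not say that these numbers mark pairs, so the main fit held no block. Same-numbered libraries deviated from their group means with a correlation of -0.0977 across genes. With 2 libraries per group, that value cannot decide whether the samples were paired.

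With 1 library left out, the log2 fold change ran from 2.84 to 3.38 for ARRDC3, 2.26 to 3.45 for TXNIP, 0.58 to 0.74 for ARRDC1 and -0.33 to 2.06 for ARRDC2, which was reversed without shGOLM1 replicate 2. ARRDC1 was at 0.62 with library totals alone, 0.62 with no filter and 0.81 with at least 5 CPM in 2 libraries. The cause was not tested.

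Named genes near 0 changed sign in places. ARRB2 turned to 0.0086 with DESeq2-kind size factors and 0.11 with the 5 CPM filter, and ran from -0.57 to 0.33 with 1 library left out (0.33 without shGOLM1 replicate 1). Without shGOLM1 replicate 1 or 2, MLXIP was at -1.15 or 0.39, VPS28 at 1.20 or -0.25, VPS26B at 0.069 or -0.19 and VPS26A at 0.19 or -0.19. VPS26B was at 0.097 with the 5 CPM filter. VPS26A was at -0.072 with library totals alone, -0.034 with no filter and -0.064 without shscramble replicate 2. SLC11A2 was at -0.054 with library totals alone, -0.052 with no filter and -0.0032 in DESeq2, and ran from -0.091 to 0.070 with 1 library left out (-0.013 and -0.030 without shscramble replicates 1 and 2). With a prior count of 0.5, 5 of 5 nearest profiles to ARRDC3 and 4 of 5 to TXNIP were shared.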

Other observations

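The genes around ARRDC3 on chromosome 5 were looked at after its values were seen. Of 12 other genes within 250 kb of ARRDC3, 4 were tested, and all 4 had both shGOLM1 libraries above both shscramble ones, where 25.2% of all tested genes did. The long noncoding RNA gene LUCAT1 (91054834 to 91314547, minus strand) lies 54.2 kb from ARRDC3. It was at 4.29 and 5.83 CPM in the shscramble pair and at 38.2 and 90.4 CPM in replicates 1 and 2 of shGOLM1, a 12.7-fold difference with the same order of libraries as ARRDC3. ADGRV1, a large adhesion receptor gene, was at 0.337 and 0.451 against 0.548 and 2.28 CPM. The other 2, ARRDC3-AS1 and AC123595.1, had at most 15 counts in any library. AC123595.1, at 4 and 3 counts in shscramble, passed the filter on low counts only through shGOLM1, at 15 and 11. It lies inside LUCAT1 on the same strand, ADGRV1 overlaps LUCAT1, and ARRDC3-AS1 overlaps ARRDC3. The 4 are thus not independent, and nothing is read from their count. Around TXNIP, 12 genes within 250 kb were tested, of which 3 lay higher and 2 lower. LIX1L was at 41.7 and 41.1 against 69.1 and 113 CPM, and POLR3C at 30.4 and 29.5 against 25.4 and 14.3 CPM. Around ARRDC2, 4 of 11 lay higher and 2 lower, and around ARRDC1, 1 of 9 lay higher and 5 lower. Over all tested genes 25.2% lay higher and 26.5% lower. Among the higher genes were LIX1L-AS1 near TXNIP, with 8 and 3 counts in shscramble and 15 and 125 in shGOLM1, and IFI30 near ARRDC2. IFI30 had 3 and 6 counts in shscramble and 13 and 62 in shGOLM1. Both passed the filter on low counts only through shGOLM1, so nothing is read from these counts of neighbours.

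The FOXO-type matches of TXNIP and ARRDC3 lie in a run of 11 shared bases, TGGTAAACAAG, found after the sequences were seen. On either strand it occurs in 8 of 35116 windows, of 7 genes. Of these, 4 were tested: TXNIP and ARRDC3, which defined the run, ARRDC3-AS1, whose window covers the same DNA as that of ARRDC3, and PRPSAP2, which lay lower. It is not the longest run that TXNIP and ARRDC3 windows share. That is CCCTCCCTGCGC, of 12 bases, in 30 windows. Its 17 tested genes include TXNIP and ARRDC3, which defined it and lay higher. Of the 17, 35.3% lay higher and 23.5% lower, with a median log2 fold change of -0.17. With the defining genes among them, nothing is read from these shares.

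Of 328 tested genes with GTAAACA in a window, 30.5% lay higher in shGOLM1 and 20.7% lower, against 23.6% and 29.2% of the 9486 tested genes that have a window. The 328 include TXNIP, ARRDC3 and ARRDC3-AS1, which lay higher and were not left out. The ATF4-type element, which no window of a member holds, leaned the same way, with 27.3% of 260 genes higher and 23.8% lower. The median log2 fold change was 0.13 for the FOXO-type and 0.15 for the ATF4-type genes. The hypoxia response core (23.7% and 29.4% of 3107 genes) and the NF-Y-type box (22.5% and 29.6% of 4079) lay near the shares of all genes with a window. Of 15 tested genes with a match to the carbohydrate response element pattern, TXNIP included, 40% lay higher and 26.7% lower. Of 1208 with the E-box CACGTG, 21.4% lay higher and 33.6% lower. These shares are a description, and windows shared between neighbouring genes are counted for each.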
